A study of Mus musculus with 6 samples.

Results

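The 8 genes described here, *Hmgcs1*, *Sqle*, *Idi1*, *Fdps*, *Fdft1*, *Lss*, *Insig1* and *Srebf2*, were chosen by name as genes controlled by the transcription factor SREBP2, out of 55385 genes in the deposited table. All 8 were among the 16951 genes that were tested, those that reached 10 counts in 2 or more of the 6 libraries. Of the 8, 6 encode enzymes of cholesterol synthesis, *Insig1* encodes a sterol-sensing protein of the endoplasmic reticulum and *Srebf2* encodes SREBP2 itself. None of the 8 takes up cholesterol, and uptake genes were therefore read from a separate list of 13 genes. In these cells the 8 genes varied little: the largest ratio of any gene between a pair of libraries was 1.19. Only *Idi1* passed the test, at a level 14.9% higher in homozygous than in wild-type cells. That is 1 of 8, where 10.9% of all tested genes were higher in that comparison. The call was lost with the DESeq2 test and under other settings given below.

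Cells make cholesterol from acetyl-CoA by way of mevalonate, farnesyl diphosphate, squalene and lanosterol. When sterols in the endoplasmic reticulum run low, the SREBP2 precursor leaves its anchor protein INSIG1, is cut by proteases in the Golgi and enters the nucleus, where it binds sterol response elements and activates the genes of nearly every step of the pathway. Rapidly dividing cells such as mouse embryonic stem cells (mESCs) need cholesterol for new membranes, and these genes are known to rise together when sterols are withdrawn and to fall together when cholesterol is supplied.

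RNA was sequenced from mESCs of the G4 line, an F1 hybrid of inbred mouse strains, grown with LIF on a layer of CD1 feeder cells. The 3 genotypes were wild-type, a heterozygous deletion of the *Wnt6* anchor region and a homozygous deletion of it, with 2 libraries per genotype. The deletion was made with CRISPR-Cas9, and edited cells were picked as individual clones, so a difference between genotypes cannot be told apart from a difference between clones. The labels do not say whether the 2 libraries of a genotype came from separate cultures, so the p-values measure the spread between these libraries, which may be technical.

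The libraries held between 23813912 and 28964706 counts. Values are CPM, counts relative to the size of each library, with TMM factors that adjust each library's total for its composition. Reads on *Wnt6* numbered 11 and 13 in the wild-type, 6 and 4 in the heterozygous and 0 and 0 in the homozygous libraries. All 10 mESC markers examined were above 0 in every library, with summed levels of 3267 to 3329 CPM in wild-type, 2968 to 3020 in heterozygous and 3272 to 3462 in homozygous libraries. All 19 tested markers of fibroblasts, of 20 listed, were also above 0, and their summed level was 1637 to 1647 CPM in wild-type, 1145 to 1194 in heterozygous and 786 to 797 in homozygous libraries. RNA of the feeder cells and of the mESCs was counted together, and fewer cells of a type and less RNA per cell cannot be told apart. The second feature of these libraries that touches the genes below is chromosome 8, where the median over 890 tested genes was 0.39 on the log2 scale in homozygous against wild-type cells and -0.12 in heterozygous against wild-type cells. None of the 8 genes lies on chromosome 8.

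Promoter sequences were available in the RefSeq table of GRCm38.p6 for 5 of the 8 genes, *Hmgcs1*, *Idi1*, *Lss*, *Insig1* and *Srebf2*. The 250 bases before each start were searched on both strands for 3 short motifs, a sterol response element core (TCACNCCA), the CCAAT box bound by NF-Y and the GC box bound by SP1 (GGGCGG), and no match overlapped a match to another motif. The sterol motif was in the window of 2 of the 5 genes, against 3.67% of all 32851 promoters. CCAAT was found in 5 of 5, against 33.8% of all promoters, and GGGCGG in 5 of 5, against 32.7%. These are matches of letters and not measured binding sites, and the promoters compared were not matched to the 5 in level or base composition. The starts are those of RefSeq, and 4 of the 5 windows ran into an annotated exon. Bases before that exon numbered 145 for *Idi1*, 233 for *Lss*, 201 for *Insig1* and 162 for *Srebf2*. Every match of *Idi1* lay past the first base of the exon, and those of *Lss* and *Insig1* lay before it. In *Srebf2* the GC boxes 79, 52 and 34 bases before the RefSeq start lay past it, and its other matches lay before it. The 2 stretches with a sterol motif are shown because SREBP2 is known to act on both genes, its own gene among them, with capitals marking TCACNCCA and the CCAAT box, which reads ATTGG on the printed plus strand. The first is chr13:119690101-119690350 and the second is chr15:82147019-82147180, which stops before the first annotated exon.
*Hmgcs1*: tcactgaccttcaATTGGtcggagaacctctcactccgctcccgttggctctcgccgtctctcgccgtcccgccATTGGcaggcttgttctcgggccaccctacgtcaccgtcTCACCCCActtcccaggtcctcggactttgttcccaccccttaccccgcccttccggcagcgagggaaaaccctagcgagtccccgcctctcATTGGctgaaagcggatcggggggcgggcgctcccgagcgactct
*Srebf2*: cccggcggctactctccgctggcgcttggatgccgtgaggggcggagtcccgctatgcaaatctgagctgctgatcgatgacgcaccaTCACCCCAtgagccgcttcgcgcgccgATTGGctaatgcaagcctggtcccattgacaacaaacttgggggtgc
The sterol motif lies 137 bases before the RefSeq start in *Hmgcs1* and 162 bases before it in *Srebf2*, in both cases as TCACCCCA. These starts differ from the gene starts given below, and that of *Srebf2* lies beyond the end of its printed stretch.

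To compare the genes with each other, CPM were divided by the length in kilobases of each gene's exons, pooled over all annotated transcripts. A gene whose expressed transcripts skip some of these exons gets too low a value. *Hmgcs1* was highest, at 68.1 ± 2.65 CPM per kb (SD over 6 libraries), and *Srebf2* followed at 35.8 ± 1.56. *Sqle* (29.1 ± 0.600), *Insig1* (28.5 ± 0.927) and *Fdft1* (28.2 ± 1.32) could not be put in order, since their libraries overlapped. *Idi1* (11.9 ± 0.896), *Lss* (8.77 ± 0.273) and *Fdps* (6.89 ± 0.249) were lower, with no overlap of libraries between neighbors in this order. Such overlap does not measure an error in length. *Lss* had the longest pooled exons, 10787 bases, and its mean of 94.6 CPM was above the 88.1 of *Insig1*. *Fdps* shares exon bases with another gene, as given below. In wild-type cells the level per kb of *Hmgcs1* stood above 95.7% of the genes ranked and that of *Fdps* above 64.0%. All 8 genes together took between 0.106% and 0.114% of a library's counts.

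**Figure D1:**
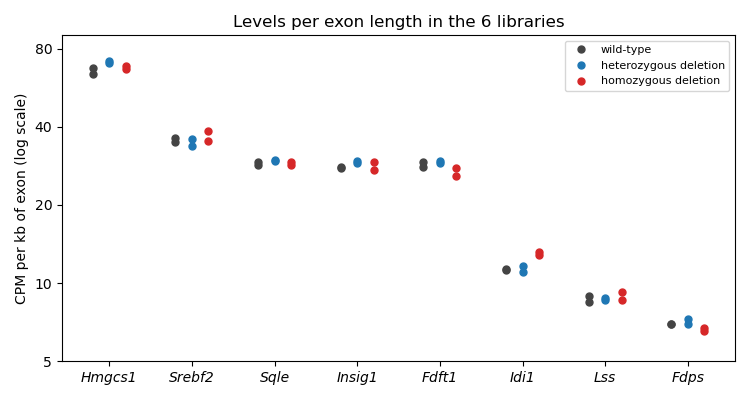
CPM per kilobase of exon (log axis) of the 8 genes, ordered by their mean; each point is a library, colored by genotype, with 2 libraries per genotype. *Hmgcs1* lies between 64.0 and 71.5 CPM per kb, above every other gene, and *Sqle*, *Insig1* and *Fdft1* overlap.

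*Hmgcs1* (chromosome 13 of GRCm38, 119690379 to 119708260) encodes the synthase that makes HMG-CoA, the precursor of mevalonate. It was at 294 and 309 CPM in wild-type cells, 323 and 329 in heterozygous cells, and 314 and 307 in homozygous cells. Both heterozygous libraries were above all other libraries. The log2 fold change against wild-type was 0.11 ± 0.0419 (SE) in heterozygous cells, with a 95% interval of 0.02 to 0.20, and did not pass the edgeR quasi-likelihood test after Benjamini-Hochberg adjustment (adjusted p = 0.164). In homozygous cells it was 0.04, with an adjusted p of 0.538 in edgeR. Exons of *Hmgcs1* share 557 bases with the antisense gene *Gm48342*, and whether the counting used strand was not given in the sources used here.

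*Idi1* (chromosome 13, 8885501 to 8892451) encodes the isomerase that turns isopentenyl diphosphate into dimethylallyl diphosphate, the starter unit of farnesyl diphosphate. It was at 39.5 and 39.9 CPM in wild-type cells, 38.5 and 40.6 in heterozygous cells, and 45.1 and 46.0 in homozygous cells. Both homozygous libraries were above the other 4, and the wild-type and heterozygous libraries overlapped. The log2 fold change was 0.20 ± 0.0576 (SE) in homozygous against wild-type cells, with a 95% interval of 0.08 to 0.32 and an edgeR adjusted p of 0.017. Against heterozygous cells it was again 0.20, or 15.0%, with an interval of 0.08 to 0.32 and an edgeR adjusted p of 0.0145. These 2 comparisons share the homozygous libraries. In heterozygous against wild-type cells it was -0.0021, with an interval of -0.12 to 0.12. Of the exon bases of *Idi1*, 9.22% overlap *Gm48574* on the opposite strand, and the strand setting of the counting was not given. The call against wild-type was lost with DESeq2 (adjusted p = 0.074), with total counts as the only scaling (edgeR adjusted p = 0.0888), and without wild-type replicate 1 (0.124), wild-type replicate 2 (0.0668) or homozygous replicate 2 (0.063). The log2 fold change without a library ran from 0.18 to 0.22. The call against heterozygous cells was lost with total counts only (edgeR adjusted p = 0.0946) and without heterozygous replicate 1 (0.127) or homozygous replicate 2 (0.0534).

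*Fdps* (chromosome 3, 89093588 to 89101959, minus strand) encodes the synthase of farnesyl diphosphate, the last step before the branch to sterols. It was at 29.2 and 29.4 CPM in wild-type cells, 29.2 and 30.5 in heterozygous cells, and 28.3 and 27.4 in homozygous cells. The homozygous libraries were the lowest 2. The log2 fold changes against wild-type were 0.03 in heterozygous and -0.07 in homozygous cells, with edgeR adjusted p of 0.886 and 0.490. The level of *Fdps* is uncertain, because 26.7% of its exon bases are shared with *Gm43738*, an annotated protein-coding gene on the same strand.

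*Fdft1* (chromosome 14, 63145150 to 63179578, minus strand) encodes squalene synthase, the first enzyme committed to sterols. It was at 118 and 123 CPM in wild-type cells, 123 and 125 in heterozygous cells, and 117 and 110 in homozygous cells. Here too both homozygous libraries were below all others. The log2 fold change was -0.09 in homozygous against wild-type cells, with an interval of -0.19 to 0.00, and -0.13 against heterozygous cells, with an interval of -0.23 to -0.03, and neither passed the edgeR test (adjusted p = 0.172 and 0.0556). Of its exon bases, 18.3% overlap *Ctsb*, a lysosomal protease gene on the opposite strand.

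*Sqle* (chromosome 15, 59315077 to 59331192) encodes squalene monooxygenase, a rate-limiting step of the sterol branch. It was at 157 and 162 CPM in wild-type cells, 164 and 166 in heterozygous cells, and 162 and 158 in homozygous cells. It was the steadiest of the 8 genes, with a coefficient of variation over the 6 libraries of 2.06%, against 7.55% for *Idi1*. The log2 fold change in homozygous against wild-type cells was 0.00, with an interval of -0.09 to 0.09.

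*Lss* (chromosome 10, 76531588 to 76557138) encodes lanosterol synthase, which closes the sterol rings. It was at 91.3 and 96.3 CPM in wild-type cells, 93.2 and 94.8 in heterozygous cells, and 92.7 and 99.5 in homozygous cells. The libraries of the 3 genotypes overlapped. Its log2 fold changes against wild-type were 0.00 in heterozygous and 0.04 in homozygous cells, with edgeR adjusted p of 0.984 and 0.666.

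*Insig1* (chromosome 5, 28071363 to 28078662) encodes the protein that holds the SREBP precursor back when sterols are plentiful, and it is itself raised by SREBP2. It was at 86.0 and 86.9 CPM in wild-type cells, 91.4 and 89.7 in heterozygous cells, and 90.4 and 84.1 in homozygous cells. The 2 homozygous libraries lay on either side of the wild-type libraries. The log2 fold change against wild-type was 0.07 in heterozygous cells, with an interval of -0.04 to 0.17, and 0.01 in homozygous cells, with an interval of -0.09 to 0.12.

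*Srebf2* (chromosome 15, 82147181 to 82205379) was at 259.8 and 250.3 CPM in wild-type cells, 259 and 243 in heterozygous cells, and 276 and 254 in homozygous cells. The genotypes overlapped, and the widest spread between the libraries of a genotype, a SD of 16.0 CPM, was in homozygous cells. Its log2 fold changes against wild-type were -0.02 in heterozygous and 0.05 in homozygous cells, with edgeR adjusted p of 0.876 and 0.485. Against heterozygous cells the homozygous value was 0.08 (adjusted p = 0.256), and without homozygous replicate 2, the lower of its pair, it was 0.14 and passed (edgeR adjusted p = 0.0424). These are values of RNA, and processed SREBP2 protein was not analysed here.

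**Figure D2:**
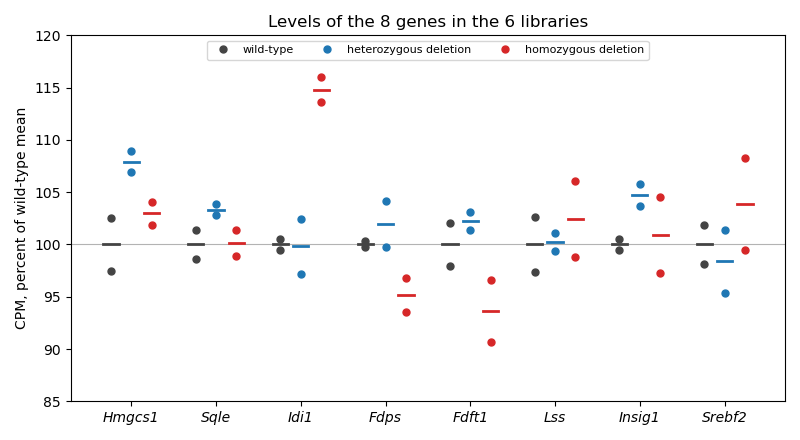
CPM of the 8 genes as a percent of each gene's wild-type mean; each point is a library and each bar the mean of the 2 libraries of a genotype. The homozygous libraries of *Idi1* stand above all of its other libraries, at a mean of 45.5 CPM against 39.7 in wild-type. In percent of the wild-type mean, no other gene has a group mean as far from its wild-type mean.

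The comparison of heterozygous with wild-type cells asked whether loss of the anchor region from a single allele was accompanied by a change in these genes. By the edgeR quasi-likelihood test at an adjusted p below 0.05, 0 of the 8 were higher and 0 lower, where 2.23% of all tested genes were higher and 2.91% lower. At an unadjusted p below 0.05 there was 1, *Hmgcs1*, against 2757 of all 16951 tested genes, and DESeq2 also called 0. Libraries did not overlap for *Hmgcs1*, *Sqle* and *Insig1*, all at higher values in heterozygous cells that did not pass the test. The share of all tested genes without overlap was not counted. With 2 libraries against 2, such separation also arises without a difference, so no trend is read from it. The median log2 fold change of the 8 was 0.03, and their median absolute value was 0.03 against 0.10 over all tested genes. Those genes were not matched to the 8 in level, so the difference is not shown to be particular to the 8. With the added condition of an absolute log2 fold change above 1, 0 of the 8 and 0.165% of all tested genes were called.

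In homozygous against wild-type cells, 1 of the 8 was higher, *Idi1*, and 0 were lower, where 10.9% of all tested genes were higher and 10.5% lower. The count of 1 of 8 is close to that background. At an unadjusted p below 0.05 there was also 1 of 8, against 5511 of all 16951 tested genes. DESeq2 called 0 of the 8, with *Idi1* at an adjusted p of 0.074, and with total counts only *Idi1* was not called either (edgeR adjusted p = 0.0888). The 7 other genes had log2 fold changes between -0.09 and 0.05. Libraries did not overlap for *Idi1*, which was higher, and for *Fdps* and *Fdft1*, at lower values that did not pass the test. Here too the share of all tested genes without overlap was not counted, and no trend is read from these genes. The median log2 fold change was 0.02 and the median absolute value 0.05. Over all tested genes, not matched in level, the latter was 0.15, and outside chromosome 8 it was 0.14. With the fold condition 0 of the 8 were called, against 2.14% of all tested genes. Total counts as the only scaling shifted the median of all genes by -0.06 and split the calls into 1183 higher and 2525 lower, in place of 1847 and 1786, and *Fdft1* then passed as lower (edgeR adjusted p = 0.0192).

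In homozygous against heterozygous cells, *Idi1* was again the 1 gene of 8 that was higher and 0 were lower, where 12.9% of all tested genes were higher and 12.9% lower. At an unadjusted p below 0.05 there were 2, *Idi1* and *Fdft1*, against 6257 of all 16951 tested genes. DESeq2 called 1 higher and 0 lower, as edgeR did. Libraries did not overlap for *Idi1*, which was higher, and for *Hmgcs1*, *Sqle*, *Fdps* and *Fdft1*, at lower values that did not pass the test. The share of all tested genes without overlap was again not counted, and no trend is read from these genes. The median log2 fold change of the 8 was -0.05, and the median absolute value was 0.07. Over all tested genes, not matched in level, the latter was 0.17, and outside chromosome 8 it was 0.16. With the fold condition 0 of the 8 were called, against 1.39% of all tested genes. With total counts only, which gave 1391 higher and 3340 lower calls over all genes in place of 2191 and 2180, *Idi1* was not called and 3 of the 8, *Hmgcs1*, *Sqle* and *Fdft1*, passed as lower. Without homozygous replicate 1 *Fdft1* also passed as lower (edgeR adjusted p = 0.0221).

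**Figure D3:**
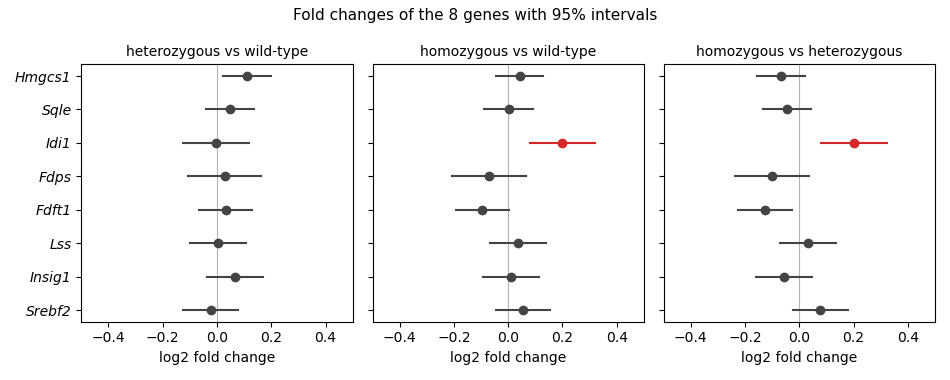
Log2 fold changes of the 8 genes in the 3 comparisons of genotypes, with 95% intervals from the edgeR fit; red marks an adjusted p below 0.05. Every interval lies between -0.24 and 0.32, and only *Idi1* in the 2 comparisons with homozygous cells is marked.

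Over the 24 gene and genotype comparisons, no 95% interval reached beyond -0.24 or 0.32 on the log2 scale, and the widest reached 0.14 to either side of its fold change. Changes of the 8 genes larger than these bounds lie outside the intervals of this fit. The summed level of the 8 genes was 1087 ± 15.6 CPM in wild-type, 1119 ± 1.75 in heterozygous and 1105 ± 28.0 in homozygous cells (SD, n = 2 each). The fibroblast marker sum had means of 1642, 1169 and 792 CPM in the same groups, and its part in these values was not tested.

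The 8 genes did not all follow 1 pattern across the 6 libraries. The correlation of each gene's log2 CPM with the mean of the other 7 was 0.79 for *Sqle*, 0.75 for *Hmgcs1* and 0.64 for *Insig1*. For *Fdps* and *Fdft1* it was 0.00, and for *Srebf2* (-0.26), *Lss* (-0.29) and *Idi1* (-0.43) it was negative. These values describe 6 libraries that share their depth and scaling with every gene, and the changes they rest on are small: the mean centered log2 CPM of the 8 genes ran only from -0.03 to 0.02.

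The rest of the pathway was read from lists that hold some of the 8 genes too. In heterozygous against wild-type cells, 2757 of all 16951 tested genes were at an unadjusted p below 0.05. That is the share to set beside the unadjusted counts of every list. Of 9 genes from acetyl-CoA to farnesyl diphosphate, 0 passed the edgeR test in heterozygous against wild-type cells (2 at an unadjusted p below 0.05, 0 by DESeq2) and 2 rose in homozygous against wild-type cells, *Idi1* and *Mvd*, where 10.9% of all tested genes were higher, with a list median of -0.01. *Mvd*, the decarboxylase that makes isopentenyl diphosphate, was at 46.8 and 50.1 CPM in wild-type cells, 45.6 and 39.4 in heterozygous cells, and 61.2 and 60.3 in homozygous cells. It was higher in both homozygous libraries than in any other, by 0.33 on the log2 scale against wild-type (edgeR adjusted p = 0.000766). *Mvd* lies on chromosome 8. In heterozygous cells it was at -0.19 against wild-type (adjusted p = 0.12), and it passed as lower without heterozygous replicate 1 (-0.30, adjusted p = 0.0251).

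Of 13 genes from squalene to cholesterol, 0 passed in heterozygous against wild-type cells (0 at an unadjusted p below 0.05, 0 by DESeq2) and 2 rose in homozygous against wild-type cells, close to the 10.9% of all tested genes that were higher, with a list median of 0.02. *Msmo1*, the methylsterol monooxygenase that demethylates lanosterol derivatives at carbon 4, was at 101 and 107 CPM in wild-type cells, 99.9 and 99.4 in heterozygous cells, and 139 and 137 in homozygous cells. The homozygous libraries stood apart from the other 4, with a log2 fold change of 0.41 against wild-type (edgeR adjusted p = 1.5e-06), and *Msmo1* also lies on chromosome 8. *Lbr*, the lamin B receptor with sterol reductase activity, rose by 0.14 on the log2 scale (adjusted p = 0.0283), a call lost with total counts only (0.172) and without wild-type replicate 1 (0.275) or homozygous replicate 1 (0.0984). Against heterozygous cells *Cyp51*, the lanosterol demethylase, was higher by 0.13 at an adjusted p of 0.0498, which was lost in 9 of 12 alternatives, among them those without heterozygous replicate 1 (0.27), heterozygous replicate 2 (0.0779) and homozygous replicate 1 (0.198). *Tm7sf2*, a sterol reductase, had the largest value of the list in heterozygous against wild-type cells, 0.12, with an adjusted p of 0.603.

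The sterol-sensing and SREBP-processing list held 11 genes, of which 0 passed in heterozygous against wild-type cells (2 at an unadjusted p below 0.05, 0 by DESeq2) and 3 rose in homozygous against wild-type cells, where 10.9% of all tested genes were higher, with a list median of 0.05. Among the 3 were *Mbtps1*, the Golgi protease that makes the first cut in SREBP precursors, and *Erlin2*, a membrane protein of the endoplasmic reticulum that binds cholesterol. *Mbtps1* was at 217 and 222 CPM in wild-type cells, 198 and 202 in heterozygous cells, and 334 and 327 in homozygous cells. That was 0.59 on the log2 scale above wild-type (edgeR adjusted p = 2.54e-09), with *Erlin2* at 0.45. The 3 are the only ones of the 11 genes that lie on chromosome 8, and all 5 listed genes on that chromosome, *Mvd* and *Msmo1* included, rose. On the whole chromosome 547 of 890 tested genes rose and 18 fell in that comparison, and the part of this in the 5 values was not tested. *Srebf1*, the gene of the related factor SREBP1, was 0.18 higher in homozygous than in heterozygous cells (adjusted p = 0.0335), a call lost with DESeq2 (0.0635), with total counts only (0.177) and without heterozygous replicate 2 (0.424) or homozygous replicate 1 (0.128). In heterozygous against wild-type cells it was at -0.14 (adjusted p = 0.225), and it passed as lower without heterozygous replicate 1 (-0.24, adjusted p = 0.0439).

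**Figure D4:**
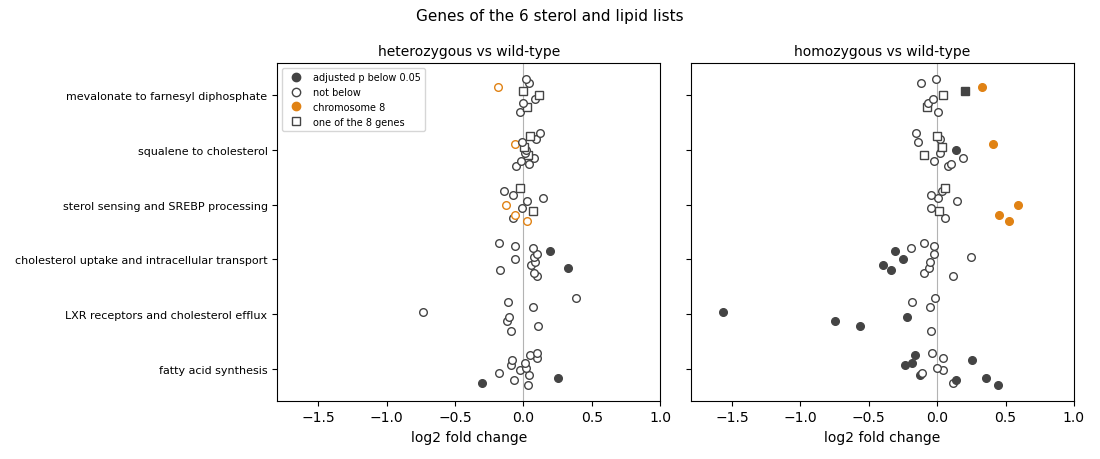
Log2 fold changes against wild-type of the genes of 6 lists in heterozygous (left) and homozygous (right) cells; filled symbols have an adjusted p below 0.05, orange marks genes of chromosome 8 and squares mark the 8 genes. Filled orange points lie to the right in homozygous cells, from 0.33 to 0.59, while most squares sit near 0.

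Genes that bring cholesterol into the cell or move it within the cell were on the uptake list of 13. In heterozygous against wild-type cells 2 rose, with a list median of 0.08, where 2.23% of all tested genes were higher. In the same comparison 15 of the 19 tested fibroblast markers were lower, with a median log2 fold change of -0.50, as were 6 of the 10 mESC markers, with a median of -0.19, and their part in the uptake values was not tested. *Lrp8*, a lipoprotein receptor, was at 35.6 and 31.1 CPM in wild-type cells, 41.8 and 41.9 in heterozygous cells, and 30.7 and 33.4 in homozygous cells. *Soat1*, which esterifies cholesterol for storage, was at 110.0 and 110.3 CPM in wild-type cells, 122 and 130 in heterozygous cells, and 85.2 and 92.7 in homozygous cells. Both were highest in the heterozygous libraries. The log2 fold changes in heterozygous against wild-type cells were 0.32 for *Lrp8* (edgeR adjusted p = 0.00622) and 0.20 for *Soat1* (adjusted p = 0.0236). The *Lrp8* call was lost without wild-type replicate 2 (0.185) or heterozygous replicate 2 (0.0582), and the *Soat1* call with DESeq2 (0.0787) and without wild-type replicate 1 (0.179), wild-type replicate 2 (0.172) or heterozygous replicate 2 (0.312).

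In homozygous against wild-type cells 4 of the 13 fell, where 10.5% of all tested genes were lower, with a list median of -0.09. *Soat1* fell by 0.31 on the log2 scale (edgeR adjusted p = 0.000156) and *Npc2*, a lysosomal carrier of cholesterol, fell by 0.25 (adjusted p = 0.000533). *Lipa*, the acid lipase that frees cholesterol from lipoprotein esters, fell by 0.34 and *Mylip*, a ubiquitin ligase for lipoprotein receptors, fell by 0.40. The *Lipa* call was lost with DESeq2 (adjusted p = 0.107) and without wild-type replicate 1 (0.0794) or 2 (0.0713), and the *Mylip* call with DESeq2 (0.164) and without wild-type replicate 1 (0.229) or homozygous replicate 1 (0.106). Against heterozygous cells 5 of the 13 fell, where 12.9% of all tested genes were lower, *Soat1* by 0.50, *Mylip* by 0.45, *Lrp8* by 0.38, *Stard3*, a late endosomal sterol carrier, by 0.26, and *Npc2*. There *Mylip* lost its call with DESeq2 (0.0888) and without heterozygous replicate 1 (0.0509) or homozygous replicate 1 (0.0527), and *Stard3* with DESeq2 (0.175) and without heterozygous replicate 1 (0.0904), heterozygous replicate 2 (0.128) or homozygous replicate 1 (0.137). The fibroblast marker sum was lower in homozygous cells than in the other groups in these same comparisons, and its part in the falls was not tested.

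The list of LXR receptors and cholesterol efflux held 8 genes. LXR receptors are known to switch on genes that export cholesterol when oxysterols build up. In heterozygous against wild-type cells 0 of the 8 passed the edgeR test (1 at an unadjusted p below 0.05, 0 by DESeq2). *Ch25h*, which makes 25-hydroxycholesterol, was at -0.74 with an adjusted p of 0.071, and passed without the count filter (0.0214) and with only the 4 libraries compared (0.0239). In homozygous against wild-type cells 4 fell, where 10.5% of all tested genes were lower, with a list median of -0.21. For *Ch25h* the counts were 72 and 65 in wild-type cells, 41 and 36 in heterozygous cells, and 24 and 17 in homozygous cells. The 3 genotypes did not overlap, and the log2 fold change in homozygous against wild-type cells was -1.57 (edgeR adjusted p = 0.00016), the only value in the 6 lists beyond 1. The transporter gene *Abcg1* fell by 0.75, *Abca7* by 0.56 and the apolipoprotein gene *Apoe* by 0.22 (adjusted p = 6.23e-05, 0.00098 and 0.00467), and *Apoe* lost its call without wild-type replicate 2 (0.0772). Against heterozygous cells 3 of the 8 fell, where 12.9% of all tested genes were lower, *Ch25h*, *Abca7* and *Abcg1*, and *Ch25h* lost its call there with DESeq2 (0.163), with only the 4 libraries compared (0.0566) and without heterozygous replicate 1 (0.22), heterozygous replicate 2 (0.0648) or homozygous replicate 2 (0.278). Fibroblast markers moved with this list, 17 of the 19 tested being lower in homozygous against wild-type cells with a median log2 fold change of -1.09, and their part in it was not tested.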

How the data were processed

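RNA of mESCs was sequenced by the authors from stranded polyA libraries, 2 per genotype in the labels, while the methods state triplicates. What the authors deposited are whole-number counts of reads on each gene, with no normalization. The submitters' processing notes name Trimmomatic 0.39, STAR 2.6.1d, SAMtools 1.9, featureCounts 1.6.4 and DESeq2 1.22.2, on mm10. The strand setting and the handling of reads with several matches were not given in the sources used here. The 37 mitochondrial genes are at 0 in every library.

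From these, the 16951 genes that reached 10 counts in 2 or more libraries were fitted with TMM factors in 1 edgeR 4.0.16 quasi-likelihood model of 3 genotypes over the 6 libraries (limma 3.58.1, R 4.3.3). Genes were called at a Benjamini-Hochberg adjusted p below 0.05 over all tested genes, and separately with an absolute log2 fold change above 1. Intervals are at 95%. Positions and exon lengths came from a GRCm38 annotation, in which 55144 identifiers were found. The script was checked on simulated counts. Replicates were not copies of each other, as their chi-square was 2.34 to 3.65 times its degrees of freedom. The genes and lists were chosen with earlier results of these data known. Of each list, the text names at most the 4 called genes of largest absolute log2 fold change per comparison, or the 1 of largest value where none was called, and the 5 genes whose pattern was most like that of the 8. A few further called genes were named after their values were seen, and 1 gene that the rule names is not reported here. Other settings tried were the DESeq2 test (1.42.0), edgeR with DESeq2 size factors or with total counts alone, 2 other filters, a fit of the 4 libraries compared, a replicate block, and a fit without each library. Summaries used Python 3.11.15 and pandas 2.3.3.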

Additional observations from a re-analysis of the deposited data

Results flagged for a closer look

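Against heterozygous cells, several genes of the lists differed in homozygous cells by a test of that difference itself, so their departure from wild-type was not alike in the 2 deletion genotypes. All values are log2 fold changes of homozygous against heterozygous cells past an adjusted p of 0.05 in edgeR. Over all tested genes 12.9% were higher and 12.9% lower in that comparison. Of the 8 genes only *Idi1* was among them, at 0.20.

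Higher in homozygous cells were the chromosome 8 genes *Mbtps1* (0.72), *Mvd* (0.52), *Erlin2* (0.51) and *Msmo1* (0.47). The median over 890 tested genes of that chromosome was 0.51 in the same comparison. On other chromosomes *Acacb* (0.41), *Acaca* (0.41), *Fasn* (0.34), *Acly* (0.20), *Srebf1* (0.18) and *Cyp51* (0.13) were also higher.

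Lower in homozygous cells were *Ch25h* (-0.83), *Abca7* (-0.67) and *Abcg1* (-0.63) of the efflux list. Of the uptake list, *Soat1* (-0.50), *Mylip* (-0.45), *Lrp8* (-0.38), *Stard3* (-0.26) and *Npc2* (-0.19) were lower. Of the fatty acid list, the desaturase gene *Scd1* (-0.21), *Fads2* (-0.19), *Acsl4* (-0.17) and *Scd2* (-0.14) were lower. That list thus had 4 genes higher and 4 lower. Of the 19 tested fibroblast markers 16 were lower and 1 higher in this comparison, with a median of -0.57. Of the 10 mESC markers 8 were higher and 0 lower, with a median of 0.17. The part of either marker set in the higher and lower genes was not tested.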

How the results depend on the processing

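Of the 8 genes' fold changes under other settings, 255 of 296 kept their direction and their side of the threshold. With DESeq2 the count of higher genes in homozygous against wild-type cells was 0 in place of 1. With total counts only it was 0 in both homozygous comparisons, and lower genes numbered 1 against wild-type and 3 against heterozygous cells. Leaving out a library in turn gave between 0 and 1 higher in each homozygous comparison and between 0 and 1 lower against heterozygous cells; without homozygous replicate 2 the 1 higher gene there was *Srebf2*, not *Idi1*. The cause was not tested. The *Idi1* adjusted p ran from 0.0139 to 0.0888 against wild-type and from 0.00964 to 0.0946 against heterozygous cells over the settings other than left-out libraries. Every change of sign was of a value that the edgeR test had not called. With total counts only, values against wild-type were, in homozygous cells, *Hmgcs1* -0.0147, *Insig1* -0.0452, *Lss* -0.0199, *Sqle* -0.0554 and *Srebf2* -0.00387, in heterozygous cells *Idi1* 0.00790, and against heterozygous cells *Lss* -0.0346. *Lss* in heterozygous cells was -0.00399 with DESeq2, -0.00375 with its size factors, -0.00177 without the filter and -0.00101 without chromosome 8 genes, a setting chosen after seeing the data. *Sqle* in homozygous cells was -0.00568 without the filter and -0.00288 with only the 4 libraries compared. Leaving out a library gave ranges, in heterozygous cells, of -0.00356 to 0.0591 for *Fdps*, -0.0412 to 0.0347 for *Idi1*, -0.0344 to 0.0428 for *Lss* and -0.0689 to 0.0200 for *Srebf2*, in homozygous cells of -0.0402 to 0.0649 for *Insig1*, -0.0159 to 0.0861 for *Lss*, -0.0197 to 0.0308 for *Sqle* and -0.00851 to 0.1147 for *Srebf2*, and against heterozygous cells of -0.0206 to 0.0815 for *Lss*.

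Over all genes, DESeq2 called 482, 2265 and 2761 genes in place of 871, 3633 and 4371 in heterozygous against wild-type, homozygous against wild-type and homozygous against heterozygous cells. Without wild-type replicate 1 the first 2 counts were 392 and 2115, and without wild-type replicate 2 they were 352 and 2329. Without heterozygous replicate 2 the first was 351, and without heterozygous replicate 1 the third was 2903. Same-numbered libraries did not deviate together (r = 0.03, -0.16 and -0.000338), and the main fit did not use the numbers as a pairing. These correlations cannot show whether same-numbered libraries were prepared together. With the replicate block the counts of called genes among the 8 stayed at 0, 1 and 1. Crossing the homozygous numbers, chosen after seeing the data, also left 1 higher and 0 lower. With 2 libraries per genotype, a value that did not pass the test is not shown to be unchanged, and its interval gives the changes the fit allows.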

Other observations

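Fatty acid synthesis, the branch of lipid synthesis known to be driven mainly by SREBP1, was read from a list of 14 genes that holds none of the 8. In heterozygous against wild-type cells, where 2.23% of all tested genes were higher and 2.91% lower, 1 rose and 1 fell, *Acsl3*, an acyl-CoA synthetase, by 0.26 on the log2 scale (edgeR adjusted p = 0.00317) and *Acacb*, a mitochondrial acetyl-CoA carboxylase, which fell by 0.30 (adjusted p = 0.0179). The *Acacb* call was lost with DESeq2 and without any of the 4 libraries, with adjusted p of 0.0749 to 0.193, and the *Acsl3* call without wild-type replicate 1 (0.106) or heterozygous replicate 2 (0.0863). In homozygous against wild-type cells 4 rose and 4 fell, where 10.9% of all tested genes were higher and 10.5% lower, with a list median of 0.02. In the same comparison 17 of the 19 tested fibroblast markers were lower, with a median log2 fold change of -1.09, and their part in these values was not tested. *Fasn*, the fatty acid synthase, was at 830.1 and 779.8 CPM in wild-type cells, 788 and 735 in heterozygous cells, and 977 and 945 in homozygous cells. Its homozygous libraries were the highest 2, by 0.26 on the log2 scale against wild-type (edgeR adjusted p = 0.000249). *Acaca*, the cytosolic acetyl-CoA carboxylase, rose by 0.44 and *Acsl3* by 0.36, and the desaturase gene *Fads1* fell by 0.24. None of the 14 lies on chromosome 8. The summed level of the list was 2622 to 2680 CPM in wild-type, 2631 to 2649 in heterozygous and 2835 to 2901 in homozygous libraries.

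Among 9317 genes outside the 8 with a mean of at least 10 CPM, those whose log2 CPM over the 6 libraries was most like the mean pattern of the 8 were *Cyb5a* (Pearson r = 0.984), *Apmap* (0.982), *Tceal8* (0.977), *Srd5a1* (0.967) and *Rtcb* (0.965). The likeness rests on 6 libraries, and taking the highest of 9317 values gives a high r by the choice itself. It is a likeness to a mean, and the 8 genes did not all follow that mean. None of the 5 genes passed the edgeR test in any of the 3 comparisons.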
